A study of Mus musculus with 90 samples.

Results

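The subject is how the lung response of wild-type mice to 40 ppm inhaled styrene at 4 weeks differed from the response at 1 week. It was measured as an interaction, the 40 ppm minus 0 ppm change at 4 weeks minus the same change at 1 week, in 17097 genes and in 20 of the 90 animals of the series. The animals were adult male C57BL/6 mice from a commercial breeder with an intact Cyp2f2 gene (WT). They fell into 4 groups of 5, namely 40 ppm for 4 weeks, air (0 ppm) for 4 weeks, 40 ppm for 1 week and air for 1 week. Exposure ran for 6 hours a day on 5 days a week, animals at 0 ppm were caged individually in the same way, and whole lungs were collected on the morning after the final session. Each lung was hybridised to its own 3' expression array, and no animal was sampled at both times. The same contrast was also available in a Cyp2f2 knockout on that background (KO) and in a transgenic strain (TG) that the labels give as the knockout with 2F1, SA13 and 2B6, each with 20 animals.

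Styrene is an industrial vapour that becomes toxic once a cytochrome P450 oxidises it. In the mouse airway this is done mainly by Cyp2f2, an enzyme of club cells, the secretory cells that line the bronchioles. Club cells divide to repair the airway after such injury, and a lung that is exposed repeatedly can lose its early proliferative response, a behaviour often called tolerance or adaptation.

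The labelled tissue was checked against defining lung markers. Over the 20 animals the surfactant gene Sftpc lay between 13.74 and 13.89 on the log2 scale, Scgb1a1 of club cells between 13.51 and 13.86 and Ager of alveolar type I cells between 13.46 and 13.62, near the top of the arrays (14.01). Array medians lay between 4.66 and 4.85 in these animals, and pairs of the 20 arrays correlated at 0.980 to 0.997. Of the 4 arrays of the series to which limma gave a weight below 0.25, 0 were among these 20. The spiked poly-A controls and the 3' minus 5' difference of Gapdh overlapped between the 4 groups. In whole lung, fewer cells of a type and less RNA per cell cannot be told apart.

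The interaction was almost wholly one of genes that were higher after 1 week of exposure and were back near the control level after 4 weeks. Of 17097 genes, 91 passed (0.532%, limma, Benjamini-Hochberg adjusted p under 0.05), 5 with a positive interaction (0.0292%) and 86 with a negative one (0.503%). At an unadjusted p under 0.05 there were 316 positive and 733 negative, and the median over all genes was -0.02. Among the 86 genes with a negative interaction, 0 passed at 4 weeks and 85 had passed as higher at 1 week. Their changes had a median of -0.12 at 4 weeks (range -0.44 to 0.61) against 1.26 at 1 week (0.42 to 3.09). The interval of the 4-week change held 0 for 81 of them. As a description of what the interaction was made of, 83 of the 86 were lower in the 40 ppm animals at 4 weeks than in those at 1 week, and 3 passed between the air groups of the 2 times. A gene that did not pass between the air groups can still owe part of its interaction to them. In Cep55 the 4-week minus 1-week difference was 0.83 in air and -1.57 at 40 ppm, and in Cdk1 it was 0.20 and -2.10. In 71 of the 86, all 5 animals at 40 ppm and 1 week lay above the other 15 wild-type animals (2.36% of all genes did). These counts come from the arrays that chose the 86 genes and are no separate support for them.

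The number of genes that differed from air was far smaller at the later time. At 4 weeks 15 genes were higher and 11 lower at 40 ppm (0.0877% and 0.0643% of all genes), against 653 higher and 146 lower at 1 week (3.82% and 0.854%). The 4-week and 1-week comparisons share no animals. Changes passed at both times in 19 genes, all in the same direction, 10 higher and 9 lower, which is 73.1% of the 4-week calls and 2.38% of the 1-week calls. The SD of the changes across genes was 0.15 at 4 weeks against 0.24 at 1 week, and across genes the changes at the 2 times correlated at 0.40, with genes not being independent. The counts depended on single animals. Without animal 4 of the 40 ppm group, 12 genes passed at 4 weeks, and without air animal 1 or air animal 3 of that time 17 passed. Without air animal 2 of the 1-week group, 472 genes passed at 1 week and 74 passed the interaction.

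**Figure D1:**
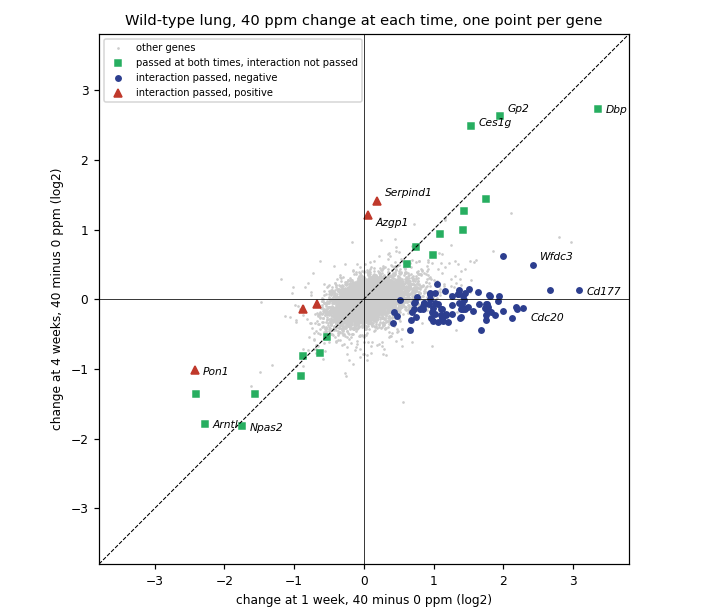
Each point is 1 of 17097 genes, with its 40 minus 0 ppm change at 1 week on the x axis and at 4 weeks on the y axis, both in log2 units; the dashed line marks equal changes. The 86 genes with a negative interaction form a band at changes near 0 at 4 weeks, and the genes that passed at both times, among them Dbp, Ces1g and Arntl, lie near the dashed line.

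Genes of mitosis made up the largest share of the difference. Of 40 listed mitosis genes 38 were measured, and 27 passed with a negative interaction, beside 0.503% of all genes. At 4 weeks 0 of the 38 passed in either direction (median -0.14), against 34 that were higher at 1 week (median 1.29, 0 lower). The interaction was below 0 in all 38, with a median of -1.44 (range -2.40 to -0.02) against -0.02 over all genes. Part of it lay in the air animals, whose 4-week minus 1-week difference had a median of 0.26 in the 38 genes. Of these differences 4 were below 0 and 0 passed, and the median over all genes was 0.03. As the mean of the 38 genes, each centred on its mean over the 90 arrays, the 5 animals at 40 ppm and 4 weeks lay between -0.25 and 0.16, and their air controls between -0.09 and 0.37. The animals at 40 ppm and 1 week lay between 0.92 and 1.37, and their air controls between -0.40 and 0.03. So each 1-week exposed animal lay above every animal of the other 3 groups.

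Cdk1, the kinase that drives entry into mitosis, measured 6.21, 5.75, 5.72, 5.69 and 5.85 log2 at 40 ppm and 4 weeks, against 6.13, 5.64, 5.92, 5.85 and 6.27 in air controls of that time. After 1 week Cdk1 measured 7.60, 7.80, 8.34, 7.80 and 8.18 at 40 ppm, against 5.75, 5.12, 6.16, 6.12 and 5.66 in air. The exposed and air animals overlapped at 4 weeks and were apart at 1 week, when Cdk1 was 4.55-fold higher. Its interaction was -2.30 (SE 0.38, adjusted p = 6.4e-05), and its 4-week change was -0.12 (95% interval -0.65 to 0.42).

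Cdc20, the activator of the anaphase-promoting complex, stood at 5.77, 5.84, 5.85, 5.98 and 5.79 at 40 ppm and 4 weeks, against 5.80, 5.69, 6.00, 5.86 and 6.48 in air. At 1 week the values were 7.61, 7.89, 8.30, 7.55 and 7.92 at 40 ppm, against 5.45, 5.07, 6.04, 5.64 and 5.68 in air. The lowest 1-week exposed animal was thus above the highest of the other 15 by over 1 log2 unit. The interaction of Cdc20 was -2.40 (SE 0.42, adjusted p = 2.2e-04).

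Cep55, which acts in the last step of cell separation, had values of 5.42, 4.91, 4.70, 4.64 and 4.99 at 40 ppm and 4 weeks, against 5.54, 4.71, 4.98, 5.07 and 5.71 in air. The 1-week values of Cep55 were 6.41, 6.31, 6.64, 6.21 and 6.93 at 40 ppm, against 3.5, 4.29, 4.72, 5.10 and 4.24 in air. All 5 exposed animals of the first week were high, and at 4 weeks exposed and air animals were mixed. Its interaction was -2.40 (SE 0.40, adjusted p = 8.8e-05). The air values of Cep55 lay near the array medians, where a fold need not give the size of a change in mRNA.

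Other regulators of cell division followed the same course. Pbk, a mitotic kinase, ranged from 5.16 to 5.74 at 40 ppm and 4 weeks against 5.17 to 5.79 in air, and from 6.91 to 7.54 at 40 ppm and 1 week against 4.57 to 5.38 in air (interaction -2.34, SE 0.36). Birc5, the survivin subunit of the chromosomal passenger complex, ranged from 4.40 to 5.35 against 4.86 to 5.41 in air at 4 weeks, and from 6.48 to 7.06 against 4.34 to 5.09 in air at 1 week (-2.17, SE 0.39). Ckap2, a spindle protein, ranged from 3.77 to 4.64 against 4.35 to 5.15 in air at 4 weeks, and from 5.41 to 6.49 against 3.95 to 4.29 in air at 1 week (-2.12, SE 0.34). In these 3 genes the exposed and air ranges overlapped at 4 weeks and did not at 1 week.

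The interactions of Top2a, the topoisomerase that untangles chromosomes, of Ccna2, the cyclin of S and G2 phase, and of the spindle kinase Aurka were -2.11 (SE 0.35), -2.05 (SE 0.36) and -1.94 (SE 0.37). With the median of its probe sets, that of Top2a was -0.65 and did not pass (adjusted p = 0.10). Mki67, which encodes the Ki-67 proliferation antigen, did not pass. It measured 5.76, 5.44, 5.42, 4.69 and 5.62 at 40 ppm and 4 weeks, against 6.29, 5.80, 5.09, 5.82 and 6.11 in air. After 1 week Mki67 measured 5.89, 5.82, 6.09, 6.20 and 7.28 at 40 ppm, against 4.67, 4.91, 5.25, 5.37 and 4.49 in air, so exposed and air animals were apart at 1 week and overlapped at 4 weeks. Its interaction was -1.76 (SE 0.48, adjusted p = 0.072).

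Genes of the late cell cycle often carry a short element of letters TTTGAA near their start, the cell cycle genes homology region, and a CCAAT box. The promoters of the 4 mitosis genes with the largest negative interactions that had an entry in RefSeq are shown to let the reader see where these letters fall. Each line gives the 250 bases before the start in RefSeq GRCm38.p6, read 5′ to 3′ on the strand of the gene, with TTTGAA or its reverse complement and CCAAT or its reverse complement in capitals.
Cep55, chr19:38054734-38054983, plus strand: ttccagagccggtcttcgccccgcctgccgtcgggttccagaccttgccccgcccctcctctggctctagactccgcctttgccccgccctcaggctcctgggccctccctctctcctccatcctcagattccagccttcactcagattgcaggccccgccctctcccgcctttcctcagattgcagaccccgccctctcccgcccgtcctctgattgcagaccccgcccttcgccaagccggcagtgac
Cdc20, chr4:118437344-118437593, minus strand: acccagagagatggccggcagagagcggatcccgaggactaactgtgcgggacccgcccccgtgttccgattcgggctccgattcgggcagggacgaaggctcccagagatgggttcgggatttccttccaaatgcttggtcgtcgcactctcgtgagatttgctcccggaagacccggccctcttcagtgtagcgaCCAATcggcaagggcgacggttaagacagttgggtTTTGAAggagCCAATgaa
Cdk1, chr10:69352913-69353162, minus strand: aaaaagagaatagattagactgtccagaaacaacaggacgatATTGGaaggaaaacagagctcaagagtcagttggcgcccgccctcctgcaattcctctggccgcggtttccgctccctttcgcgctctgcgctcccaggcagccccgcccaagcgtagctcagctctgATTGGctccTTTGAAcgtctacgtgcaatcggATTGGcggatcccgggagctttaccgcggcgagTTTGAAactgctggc
Birc5, chr11:117848987-117849236, plus strand: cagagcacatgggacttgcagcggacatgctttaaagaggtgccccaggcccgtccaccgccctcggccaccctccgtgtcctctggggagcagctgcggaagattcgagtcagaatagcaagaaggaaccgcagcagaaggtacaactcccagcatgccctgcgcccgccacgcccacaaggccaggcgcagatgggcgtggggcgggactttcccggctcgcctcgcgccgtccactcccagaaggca

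The 250 bases of Cdk1 held TTTGAA 2 times and CCAAT 3 times, those of Cdc20 held them 1 and 2 times, and those of Cep55 and Birc5 held neither. In Cep55 a TTTGAA lay in the 50 bases after the start. Over 250 bases before to 50 after the start, searched on both strands, TTTGAA occurred in 24 of the 32 mitosis genes with an entry (75%), in 27 of the 71 genes with a negative interaction (38%) and in 18.1% of all promoters in the table. It occurred in 13.3% of the measured genes with an entry and in 3 of 28 DNA replication genes (10.7%). CCAAT occurred in 24 of 32 mitosis genes (75%), in 45 of 71 genes with a negative interaction (63.4%) and in 37.9% of all promoters. It was not particular to them, with 12 of 15 circadian clock genes (80%), 16 of 28 DNA replication genes (57.1%) and 3 of 5 genes with a positive interaction (60%). These letters describe the sequence and do not show a binding site.

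Genes of DNA replication differed in the same direction but by less. Of 33 listed genes 32 were measured, and 9 passed with a negative interaction, beside 0.503% of all genes. The median interaction over the 32 was -0.78. At 4 weeks 0 passed (median 0.03), against 25 that were higher at 1 week (median 0.76), beside 3.82% of all genes. Of the 32 genes 18 were dim, and of the 38 mitosis genes 27 were, which limits the size of changes in both lists. Tk1, the thymidine kinase of the salvage pathway, measured 4.04, 3.90, 3.45, 3.83 and 4.09 at 40 ppm and 4 weeks, against 4.34, 3.88, 3.87, 4.04 and 4.06 in air. At 1 week Tk1 measured 5.76, 5.67, 5.97, 5.75 and 6.03 at 40 ppm, against 4.66, 3.56, 3.98, 4.01 and 3.83 in air. The 5 exposed animals of the first week stood above all others. The interaction of Tk1 was -2.00 (SE 0.38, adjusted p = 7.4e-04). Dtl, which helps destroy the licensing factor Cdt1, had an interaction of -1.92 (SE 0.30), which was -1.02 with the median of its probe sets, and Uhrf1, which guides maintenance methylation behind the fork, had -1.53 (SE 0.30). Rrm2, a subunit of the ribonucleotide reductase, had -1.37 (SE 0.34), a call that was lost in 6 of 28 alternatives, each without 1 animal.

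The genes with the smallest adjusted p-values among the negative interactions were not on the mitosis or replication lists. Deup1 encodes the core of deuterosomes, the structures that amplify centrioles in cells becoming multiciliated. It measured 5.93, 5.63, 5.02, 5.6 and 5.55 at 40 ppm and 4 weeks, against 6.06, 5.77, 5.59, 5.46 and 5.72 in air. At 1 week Deup1 measured 7.21, 7.19, 7.31, 7.39 and 7.34 at 40 ppm, against 5.08, 5.57, 5.72, 5.99 and 5.07 in air. The 1-week exposed animals spanned 0.2 log2 units and all lay more than 1 unit above the others. Its interaction was -1.98 (SE 0.25, adjusted p = 2.0e-07), with a 4-week change of -0.17 (95% interval -0.52 to 0.17). E2f7, a repressor of E2F target genes, ranged from 3.78 to 4.16 at 40 ppm and 4 weeks against 3.89 to 4.66 in air, and from 5.33 to 6.19 at 40 ppm and 1 week against 3.70 to 4.20 in air. Its interaction was -1.98 (SE 0.27, adjusted p = 1.7e-06).

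The listed markers of mature ciliated cells did not pass with Deup1. Of 18 listed ciliated cell genes 15 were measured, and 0 passed the interaction, the 4-week change or the 1-week change. At 1 week 3.82% of all genes passed as higher, so 0 of 15 is near that share. The median change of these 15 was 0.09 at 4 weeks and 0.19 at 1 week, with 3 below 0 at each time. Over all genes the medians were 0.01 and 0.03. The mean of the 15 ranged from -0.02 to 0.36 at 40 ppm and 4 weeks against -0.16 to 0.36 in air, and from 0.07 to 0.39 at 40 ppm and 1 week against -0.21 to 0.29 in air, so the groups overlapped.

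Among all genes the largest negative interaction was that of Cd177, a surface protein of neutrophils. It measured 4.90, 3.75, 4.08, 4.01 and 4.23 at 40 ppm and 4 weeks, against 4.64, 4.26, 3.89, 3.77 and 3.78 in air. At 1 week Cd177 measured 6.78, 6.33, 8.95, 6.77 and 7.48 at 40 ppm, against 4.27, 3.88, 4.10, 4.58 and 4.01 in air. Every exposed animal of the first week was above 6, and all others were below 5. The interaction of Cd177 was -2.97 (SE 0.58, adjusted p = 0.0011). Most other neutrophil markers did not pass with Cd177. Of 14 measured, Cd177 alone passed the interaction, beside 0.503% of all genes with a negative one. At 1 week 3 passed as higher, Cd177 among them, beside 3.82% of all genes. The list median was 0.06 at 4 weeks against 0.00 at 1 week. Of the 14 genes 9 were dim, which limits what could pass. S100a8, an abundant granulocyte calcium-binding protein, changed by 0.17 at 4 weeks against -0.15 at 1 week, and S100a9 by 0.15 against -0.05, without passing. The other members that passed at 1 week were the collagenase Mmp8 (1.39) and Lcn2 (1.62), a siderophore-binding protein that epithelium also makes.

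Ghrl, which encodes the hormone ghrelin, measured 4.37, 4.39, 4.30, 4.56 and 4.72 at 40 ppm and 4 weeks, against 3.95, 4.09, 4.43, 4.76 and 4.44 in air. At 1 week Ghrl measured 6.52, 6.86, 7.72, 6.56 and 7.31 at 40 ppm, against 4.39, 4.04, 4.23, 4.37 and 4.56 in air. The exposed animals of the first week were apart from the rest, and those of 4 weeks lay within the range of their controls. Its interaction was -2.54 (SE 0.41, adjusted p = 5.1e-05). The air levels of Cd177, Ghrl, Tk1, Dtl and E2f7 lay at or below the array medians in every animal, where a fold need not give the size of a change in mRNA. When dim genes were left out, 28 genes passed the interaction, 2 positive and 26 negative.

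Wfdc3, a secreted protein with whey acidic protein domains, differed from these genes in that its 4-week animals were also apart. It measured 5.26, 5.18, 5.33, 5.71 and 4.96 at 40 ppm and 4 weeks, against 4.89, 4.72, 4.79, 4.68 and 4.88 in air. The 1-week values of Wfdc3 were 7.04, 7.50, 6.84, 6.99 and 6.87 at 40 ppm, against 4.41, 4.31, 4.93, 4.63 and 4.87 in air. All 5 exposed animals lay above all 5 controls at both times. The 4-week change was 0.49 (95% interval 0.06 to 0.93, adjusted p = 0.93), against 2.42 at 1 week, and the interaction was -1.93 (SE 0.31, adjusted p = 4.7e-05). With the median of its probe sets the interaction of Wfdc3 was -1.09.

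Mt1, the metal-binding metallothionein, was the only gene of the glucocorticoid response list to pass the interaction. It ranged from 10.28 to 10.89 at 40 ppm and 4 weeks against 10.43 to 10.98 in air, and from 11.18 to 11.50 at 40 ppm and 1 week against 10.34 to 10.72 in air (interaction -0.78, SE 0.16, adjusted p = 0.0032). Mt1 ran opposite to its list, whose 15 measured members had a median interaction of 0.39. With the median of its probe sets the interaction of Mt1 was -0.54 and did not pass (adjusted p = 0.060). Fkbp5, a glucocorticoid-induced chaperone, ranged from 7.13 to 8.86 at 40 ppm and 4 weeks against 6.48 to 8.56 in air, with an interaction of 0.24 (SE 0.63).

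**Figure D2:**
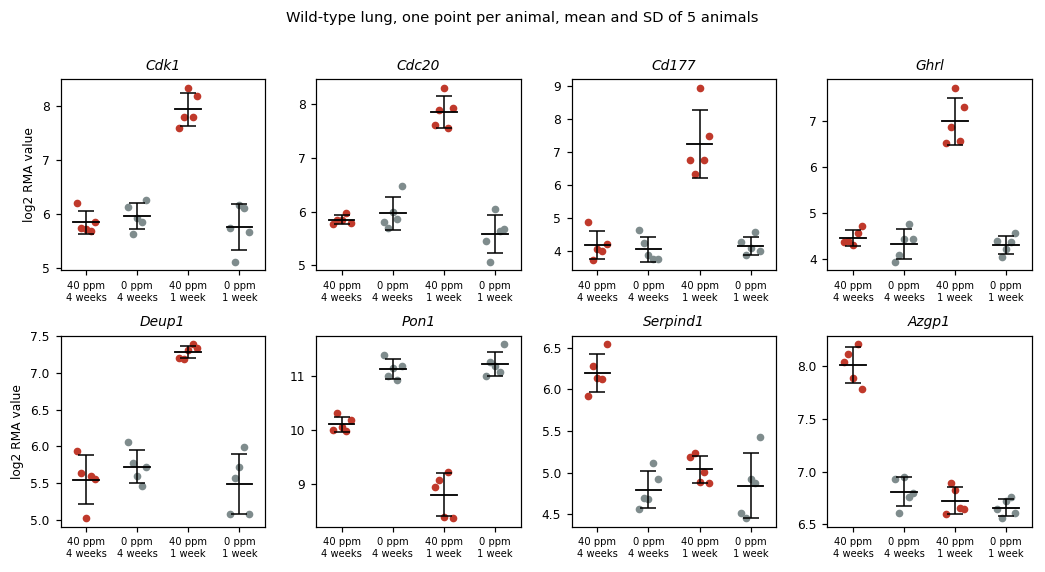
Log2 RMA values of 8 genes in wild-type lung, with 1 point per animal, a horizontal line at the mean and bars of 1 SD (n = 5 per group), 40 ppm in red and air in grey. Cdk1, Cdc20, Cd177, Ghrl and Deup1 were high only in the 1-week 40 ppm animals among these 4 groups, Pon1 was low at both times, and Serpind1 and Azgp1 were high only in the 4-week 40 ppm animals.

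A positive interaction was found in 5 genes, in 2 different ways. Pon1, the paraoxonase that hydrolyses lactones and organophosphates, was lower at both times but less so at 4 weeks. It measured 10, 10.32, 10.05, 9.99 and 10.19 at 40 ppm and 4 weeks, against 11.39, 11.01, 11.15, 10.92 and 11.18 in air. At 1 week Pon1 measured 8.94, 9.07, 8.39, 9.23 and 8.37 at 40 ppm, against 11.01, 11.26, 11.19, 11.08 and 11.59 in air. The exposed animals lay below the air animals at both times, and every 4-week exposed animal lay above every 1-week exposed animal. Pon1 was 2.03-fold lower at 4 weeks (adjusted p = 0.0025) against 5.38-fold lower at 1 week, and its interaction was 1.41 (SE 0.28, adjusted p = 0.0011). It was the single gene that passed at both times and in the interaction.

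Aox3, an aldehyde oxidase, measured 10.05, 10.11, 10.20, 10.01 and 10.07 at 40 ppm and 4 weeks, against 10.45, 10.10, 10.23, 10.11 and 10.25 in air. After 1 week Aox3 measured 9.46, 9.44, 9.07, 9.42 and 9.41 at 40 ppm, against 10.14, 10.28, 10.16, 10.30 and 10.29 in air. The groups overlapped at 4 weeks and were apart at 1 week. The interaction of Aox3 was 0.74 (SE 0.17, adjusted p = 0.017), and without animal 3 of the 1-week exposed group it did not pass (adjusted p = 0.072). Hilpda, a lipid droplet protein, was 0.07 lower at 4 weeks, against 0.67 lower at 1 week (interaction 0.61, SE 0.15, adjusted p = 0.036). The call of Hilpda was lost in 14 of 29 alternatives.

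Serpind1, which encodes the thrombin inhibitor heparin cofactor II, was instead higher only at 4 weeks. It measured 5.92, 6.28, 6.14, 6.12 and 6.54 at 40 ppm and 4 weeks, against 4.56, 4.70, 4.68, 5.11 and 4.92 in air. The 1-week values of Serpind1 were 5.19, 5.23, 4.89, 5.01 and 4.87 at 40 ppm, against 4.52, 4.46, 4.92, 4.88 and 5.43 in air. The lowest 4-week exposed animal was above all the other animals of these groups. The 4-week change was 2.66-fold (adjusted p = 1.4e-08), against 1.15-fold at 1 week, and the interaction was 1.21 (SE 0.24, adjusted p = 0.0011). Its air values lay near the array medians and the filter on dim genes removed it, so these folds need not give the size of a change in mRNA.

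Azgp1, a secreted zinc-binding glycoprotein, measured 8.04, 8.12, 7.89, 8.21 and 7.79 at 40 ppm and 4 weeks, against 6.93, 6.61, 6.95, 6.76 and 6.80 in air. After 1 week Azgp1 measured 6.6, 6.89, 6.83, 6.66 and 6.65 at 40 ppm, against 6.65, 6.56, 6.72, 6.76 and 6.61 in air. Again the 4-week exposed animals stood apart, and the other 3 groups overlapped. The interaction was 1.14 (SE 0.29, adjusted p = 0.044), a call that was lost in 19 of 29 alternatives, with an adjusted p of up to 0.10. Liver makes both proteins, and of 12 measured liver markers 0 passed the interaction, which is near the share over all genes (0.532%). Asgr1 of that list passed as lower at both times, and Fgg passed as higher at 1 week. All 12 markers were dim, which limits what could pass. The mean of these 12 ranged from -0.18 to 0.09 at 40 ppm and 4 weeks, against -0.11 to 0.19 in air, and Alb, the defining marker, changed by -0.22 at 4 weeks without passing.

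Among 24 measured xenobiotic enzymes, Pon1 and Aox3 were the 2 that passed the interaction, beside 0.0292% of all genes with a positive one. The median of the 24 was 0.19. At 4 weeks 1 was higher and 1 lower (0.0877% and 0.0643% of all genes). At 1 week 1 was higher and 5 lower (3.82% and 0.854% of all genes), so the count of higher genes was near the share over all genes. The higher one at both times was Ces1g, a carboxylesterase. It measured 7.83, 7.97, 7.24, 7.94 and 7.59 at 40 ppm and 4 weeks, against 5.21, 4.95, 5.26, 5.14 and 5.6 in air. At 1 week Ces1g measured 6.79, 7.02, 6.52, 7.01 and 6.31 at 40 ppm, against 5.52, 4.50, 5.46, 5.16 and 5.35 in air. Exposed animals were above air animals at both times, by 5.59-fold at 4 weeks against 2.90-fold at 1 week. The filter on dim genes removed Ces1g, so these folds need not give the size of a change in mRNA. The interaction of Ces1g was 0.95 (95% interval 0.36 to 1.54, adjusted p = 0.20).

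Cyp2f2 itself measured 13.06, 13.10, 12.96, 13.23 and 13.14 at 40 ppm and 4 weeks, against 13.27, 13.26, 13.21, 13.25 and 13.39 in air. The 1-week values of Cyp2f2 were 12.93, 13.06, 12.82, 12.97 and 12.87 at 40 ppm, against 13.33, 13.24, 13.29, 13.23 and 13.23 in air. It was 1.26-fold lower at 1 week (adjusted p = 0.013), with all exposed animals below the controls, and at 4 weeks 4 of 5 were below. The interaction was 0.16 (SE 0.13, adjusted p = 1.0). Scgb1a1, the main secretoglobin of club cells, had an interaction of 0.10 (SE 0.07), and Scgb3a2, a second secretoglobin, of 0.04 (SE 0.08). These genes lie near the upper end of the array scale, where changes can be compressed.

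Of the 13 measured club cell genes 0 passed the interaction (median -0.03) and 0 passed at 4 weeks, against 2 higher and 1 lower at 1 week (3.82% and 0.854% of all genes). Retnla, a secreted resistin-like protein, ranged from 11.19 to 12.59 at 40 ppm and 4 weeks against 9.83 to 11.81 in air, and from 11.91 to 12.28 at 40 ppm and 1 week against 9.56 to 10.62 in air (interaction -0.88, SE 0.44, adjusted p = 0.82). Agr2, a disulfide isomerase of mucous cells, measured 7.12, 5.98, 5.10, 5.58 and 5.92 at 40 ppm and 4 weeks, against 6.38, 5.35, 5.2, 4.09 and 4.18 in air. At 1 week Agr2 measured 7.18, 6.68, 7.57, 8.64 and 7.08 at 40 ppm, against 4.37, 4.14, 4.62, 4.89 and 5.09 in air. The groups overlapped at 4 weeks and not at 1 week, and the interaction was -1.91 (95% interval -3.22 to -0.59, adjusted p = 0.31). Gp2, a membrane protein of secretory cells, passed at both times, with 2.62 at 4 weeks against 1.95 at 1 week, and the other 12 of 14 measured mucous cell genes passed at neither time. Thus 1 of the 14 was higher at 4 weeks and 2 at 1 week, beside 0.0877% and 3.82% of all genes. In air 1 was higher at 4 weeks than at 1 week (0.135% of all genes). Of the 14 genes 9 were dim, which limits what could pass, and the filter on dim genes removed Gp2.

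In the circadian clock, Arntl and its partners activate the Per, Cry and Nr1d repressors and the output factor Dbp. Some clock genes differed from air at both times. Of 17 measured clock genes 6 passed at both times, 0 of them with the opposite sign, beside 19 of all 17097 genes. The interaction passed in 0 of the 17, which is near the share over all genes (0.532%). With wide intervals, that 0 does not show equal changes at the 2 times. Dbp measured 8.15, 8.17, 9.09, 8.65 and 8.32 at 40 ppm and 4 weeks, against 5.70, 6.57, 5.09, 6.16 and 5.18 in air. At 1 week it measured 8.78, 7.77, 8.85, 9.34 and 9.18 at 40 ppm, against 5.94, 6.68, 4.91, 4.43 and 5.16 in air. Exposed animals lay above all air animals at both times, by 6.65-fold at 4 weeks against 10.3-fold at 1 week, and the interaction was -0.63 (95% interval -1.83 to 0.58).

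Arntl measured 6.20, 6.32, 5.18, 5.54 and 6.27 at 40 ppm and 4 weeks, against 7.75, 7.51, 7.70, 7.60 and 7.89 in air. At 1 week it measured 5.67, 6.4, 5.55, 4.25 and 4.55 at 40 ppm, against 7.53, 7.10, 7.71, 7.74 and 7.75 in air. Exposed animals lay below all air animals at both times, and the interaction was 0.49 (95% interval -0.32 to 1.30). Npas2, a paralogue of Clock, changed by -1.82 at 4 weeks against -1.75 at 1 week, and Per3, a period protein, by 0.99 against 1.43. Tef, a relative of Dbp, changed by 0.75 against 0.74, and Nfil3, which opposes Dbp at its sites, by -1.10 against -0.90.

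Among the clock genes that passed only at 1 week, Bhlhe40, a repressor of clock activators, changed by 0.43 at 4 weeks against 1.06 at 1 week (interaction -0.63, unadjusted p = 0.014, adjusted p = 0.51). The others were the repressor Nr1d2, with 1.16 at 4 weeks against 1.16 at 1 week, and the output factor Hlf, with 0.78 against 1.25. Per1, a period protein that also responds to glucocorticoids, measured 8.73, 8.78, 8.14, 9.05 and 8.13 at 40 ppm and 4 weeks, against 7.59, 9, 8.72, 8.01 and 8.52 in air. At 1 week Per1 measured 7.71, 8.67, 8.12, 7.87 and 7.76 at 40 ppm, against 8.53, 9.03, 8.47, 7.81 and 8.29 in air. Per1 passed at neither time, its groups overlapped at both times, and its interaction was 0.59 (95% interval -0.05 to 1.24). The hour at which each lung was taken is not given in the labels, so its part in the clock values was not tested.

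**Figure D3:**
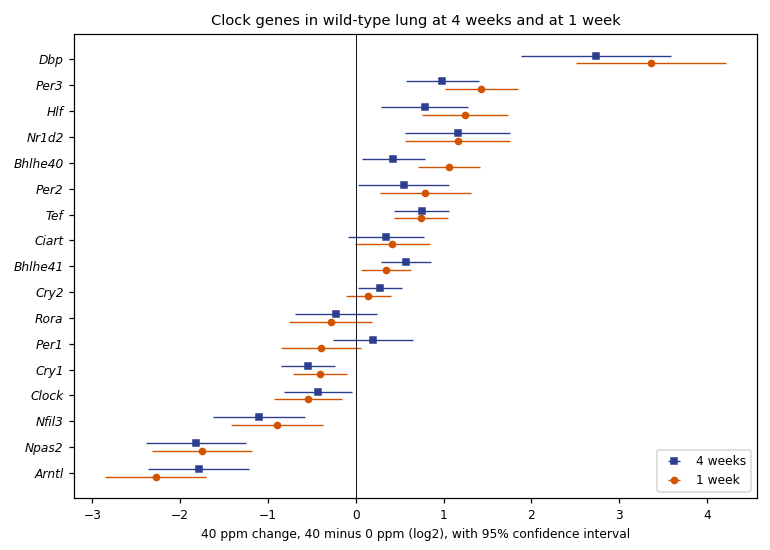
Change of each measured clock gene at 40 minus 0 ppm in log2 units, at 4 weeks (squares) and at 1 week (circles), with 95% confidence intervals. Dbp, Per3, Tef, Nfil3, Npas2 and Arntl passed at both times, with both intervals on the same side of 0. Both intervals also lie on the same side for other genes, Nr1d2 and Hlf among them, that did not pass at both times.

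The remaining genes that passed at both times also kept their direction. Tex11, a meiosis gene, changed by 1.44 at 4 weeks against 1.75 at 1 week, Sptssb, a subunit of serine palmitoyltransferase, by 1.27 against 1.43, and Hes6, a transcription factor, by 0.63 against 0.99. Asgr1, which encodes a subunit of the asialoglycoprotein receptor, changed by -1.36 at 4 weeks against -2.41 at 1 week. Nr4a3, an immediate early nuclear receptor, changed by -1.36 against -1.56, but with the median of its probe sets these changes were 0.10 and 0.20 and passed at neither time.

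For the sterol, alveolar type II and endothelial lists, members passed at 1 week, and 0 passed at 4 weeks or in the interaction. Over all genes 3.82% were higher and 0.854% lower at 1 week, and 0.0877% and 0.0643% at 4 weeks. Of 19 measured sterol synthesis genes 0 passed at 4 weeks (median 0.12), against 9 higher at 1 week (median 0.57), and 0 passed the interaction (median -0.36). Their mean ranged from -0.23 to 0.31 at 40 ppm and 4 weeks against -0.32 to 0.11 in air, and from 0.17 to 0.74 at 40 ppm and 1 week against -0.24 to 0.34 in air, so the groups overlapped at both times. Mvd, the decarboxylase that ends the mevalonate pathway, changed by 0.11 at 4 weeks against 0.95 at 1 week (interaction -0.84, SE 0.31, adjusted p = 0.44). Fdps, farnesyl diphosphate synthase, changed by 0.29 against 0.97, and Fasn, the fatty acid synthase, by 0.16 against 0.68.

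Of 14 measured genes of alveolar type II cells, the surfactant producers, 0 passed at 4 weeks against 8 higher at 1 week, and 7 were lower in exposed animals at 4 weeks than in exposed animals at 1 week. Their mean ranged from -0.03 to 0.07 at 40 ppm and 4 weeks against -0.15 to 0.04 in air, and from 0.29 to 0.36 at 40 ppm and 1 week against -0.17 to 0.07 in air. The 1-week exposed animals were thus apart, and 0 of the 14 passed the interaction. Muc1, a membrane mucin, came closest with -0.56 (SE 0.15, adjusted p = 0.050), and Il33, an alarmin stored in the nucleus, had -1.05 (SE 0.30, adjusted p = 0.10).

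Of 20 endothelial genes 0 passed at 4 weeks against 3 lower at 1 week. Flt1, a receptor for vascular endothelial growth factor, changed by -0.02 at 4 weeks against -0.32 at 1 week. Among inflammatory mediators Lcn2 changed by 0.57 at 4 weeks against 1.62 at 1 week (interaction -1.05, SE 0.32, adjusted p = 0.16), and Il6, an acute phase cytokine, by 0.09 against 0.79. Medians of the T and NK cell, B and plasma cell and thymocyte lists lay between -0.17 and 0.06 at both times. Of their 37 measured entries 0 passed at either time, with Cd8b1 counted in both the first and the last list. Most were dim, namely 11 of 17, 7 of 11 and 8 of 9 in that order, which limits what could pass.

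The list with the third largest negative median interaction was that of cardiac and skeletal muscle (13 measured, median -0.73, 0 passed). Its mean ranged from -0.51 to 0.25 at 40 ppm and 4 weeks against -0.49 to 1.97 in air, and from -0.75 to 0.51 at 40 ppm and 1 week against -1.21 to -0.19 in air. The 4-week minus 1-week difference of the list had a median of 0.96 in air and 0.29 at 40 ppm, and 0 genes passed in either. Its median interaction was 0.54 in KO and 1.42 in TG, opposite in sign to WT. The part of the wide range of the 4-week air animals in other results was not tested.

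**Figure D4:**
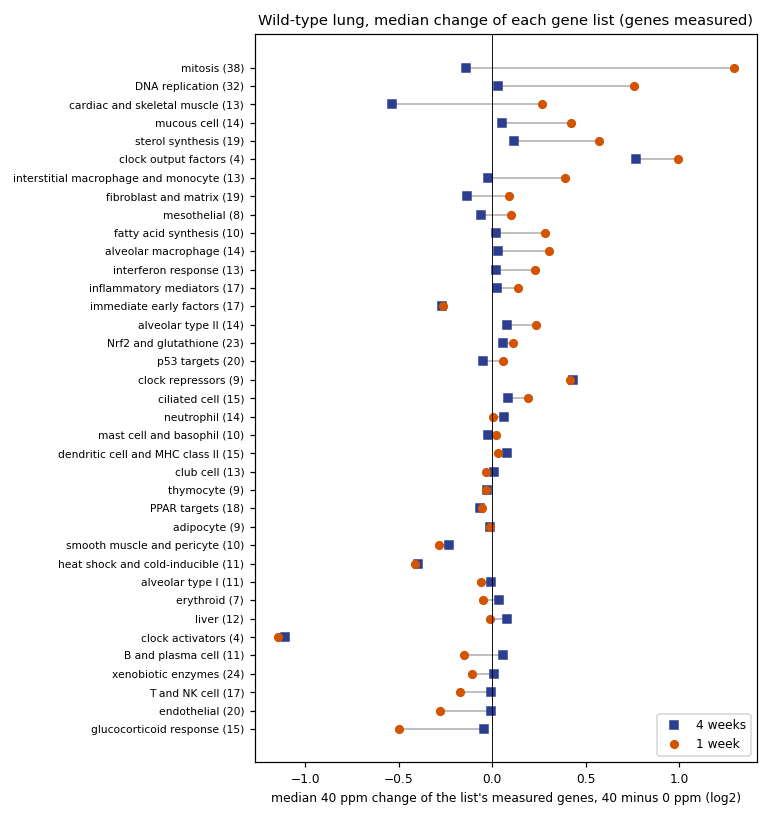
Median 40 minus 0 ppm change of the measured genes of each of 37 lists, in log2 units, at 4 weeks (squares) and at 1 week (circles), ordered by the median interaction, with the number of genes in brackets. Mitosis and DNA replication lie far above 0 at 1 week and near 0 at 4 weeks, and the clock activator list lies near -1.1 at both times.

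The times were also compared within a dose. In 40 ppm animals 388 genes were higher and 675 lower at 4 weeks than at 1 week (2.27% and 3.95% of all genes), and in air animals 23 were higher and 86 lower (0.135% and 0.503%), which is 6.22% and 0.638% of all genes in either direction. Of the 38 mitosis genes 32 were lower in the 40 ppm animals at 4 weeks than in those at 1 week, as were 23 of the 32 replication genes and 13 of the 19 sterol genes. The 40 ppm count was 607 without animal 3 and 685 without animal 5 of the 4-week group, and 698 without animal 3 of the 1-week group. The lean toward lower at 40 ppm depended on the processing, with 2294 higher and 2208 lower under array weights, 1058 and 1169 with only the arrays compared, and 1823 and 1813 at an unadjusted p under 0.05. The split of the air comparison also did, with 147 higher and 148 lower once the 4 arrays of low weight were left out and 365 higher and 241 lower with array weights.

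The pattern was then set beside the same contrast in KO and TG lungs, which lack Cyp2f2 and share no animals with WT. In KO 0 of 17097 genes passed the interaction and in TG 0 passed (413 and 573 at an unadjusted p under 0.05). The 86 genes were chosen for their WT interaction (median -1.38), so its size beside their medians of -0.17 in KO and 0.05 in TG is a description only. The difference between strains was itself tested over all genes. It passed in 5 genes between WT and KO (0.0292% of all genes), and in 19 between WT and TG (0.111%), all of them more negative in WT.

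The 5 genes that differed between WT and KO were E2f7 (WT minus KO -2.10, SE 0.39, adjusted p = 0.0054), Deup1 (-1.85, SE 0.35, adjusted p = 0.0069), Wfdc3 (-2.23, SE 0.44, adjusted p = 0.010), Ccna1 (-1.96, SE 0.35, adjusted p = 0.0045) and Ccno (-1.79, SE 0.37, adjusted p = 0.022). Ccna1, a cyclin best known from meiosis, and Ccno, a cyclin-like protein needed for multiciliated cells, were named after their values were seen. All 5 also passed between WT and TG. Deup1 averaged 5.54 ± 0.26 log2 in KO at 40 ppm and 4 weeks, against 5.40 ± 0.24 in air, and 5.66 ± 0.46 at 40 ppm and 1 week against 5.39 ± 0.22 in air (SD, n = 5 each).

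Other genes that passed between WT and TG were the mitosis genes Pbk (WT minus TG -2.36, SE 0.51) and Ckap2 (-2.24, SE 0.48), the replication genes Tk1 (-2.29, SE 0.53) and Dtl (-1.84, SE 0.42), and Mt1 (-1.12, SE 0.23). Of 38 mitosis genes 0 passed between WT and KO (median difference -1.15) and 3 between WT and TG (median -1.48). The interaction of the 38 lay below 0 in 33 in KO (median -0.28) and in 20 in TG (median -0.03). Cdk1 had an interaction of -2.30 in WT against -0.46 in KO, a difference that did not pass (-1.84, adjusted p = 0.47). The WT minus TG count rested on single animals. It was 6 without WT air animal 1 at 4 weeks, 7 and 8 without WT air animals 2 and 1 at 1 week, 8 without WT animal 5 at 40 ppm and 1 week, and between 9 and 12 without any of 9 further animals.

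**Figure D5:**
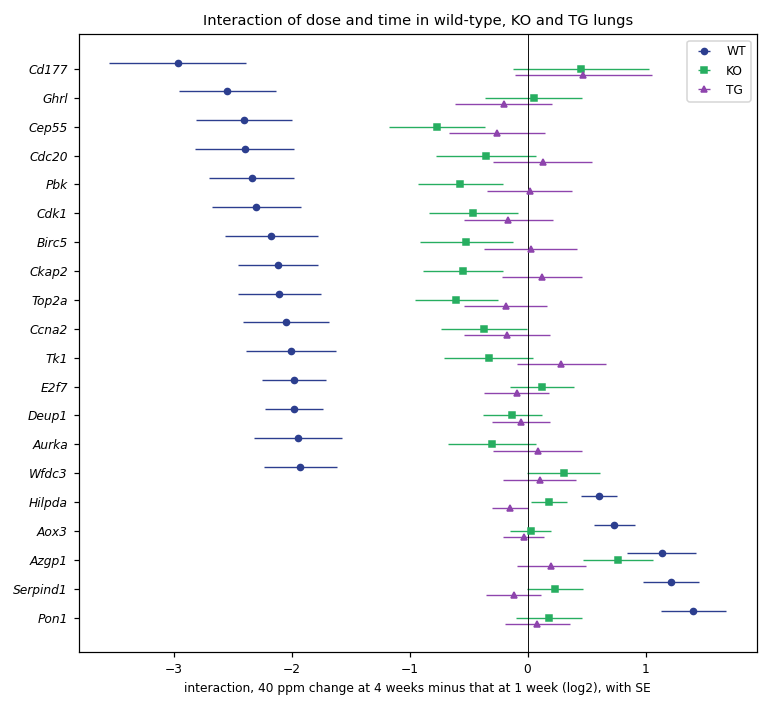
Interaction (40 ppm change at 4 weeks minus that at 1 week, log2) in WT (circles), KO (squares) and TG (triangles) lungs, with bars of 1 SE, for the 15 genes with the largest negative and the 5 with a positive WT interaction. WT values lie beyond -1.9 for the first 15 genes, where KO values lie between -0.77 and 0.46 and TG values between -0.26 and 0.47.

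At the higher dose, levels in WT lungs followed the same order of times, although the 120 and 40 ppm animals have the same air controls and were not compared here. Cdk1 averaged 5.55 ± 0.21 at 120 ppm and 4 weeks against 8.12 ± 1.24 at 120 ppm and 1 week, and Deup1 averaged 5.51 ± 0.17 against 6.72 ± 0.45. Pon1 averaged 9.95 ± 0.24 against 9.07 ± 0.94, and Serpind1 averaged 6.53 ± 0.31 against 5.48 ± 0.19 (SD, n = 5 each). The spread at 120 ppm and 1 week was wide in Cdk1 and Pon1, and 1 array of that group had a weight below 0.25.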

How the data were processed

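Lung RNA of 90 mice, 1 animal per array, was measured on 3' expression arrays with 45141 probe sets. The deposited values are log2 intensities, made by the authors with RMA and Partek per the submitters' processing notes; their versions are not stated. No further normalization was applied. After removal of 104 control probe sets, 28898 carried 1 gene symbol, 551 several and 15588 none, and each gene was represented by its brightest probe set, which left 17097 genes. limma 3.58.1 (R 4.3.3) fitted 18 group means over 90 arrays with 72 residual degrees of freedom, and Benjamini-Hochberg adjusted p under 0.05 was the threshold for each of 9 comparisons over all genes. The number of arrays limits the precision. Groups were taken from the labels. Named genes were the up to 15 largest interactions in each direction, up to 4 members of each of 37 lists that passed the interaction or else up to 3 that passed at either time, and 15 genes named in any case, Cyp2f2, Cdk1 and Dbp among them. Tef, Tex11, Sptssb, Hes6, S100a8, S100a9, Mmp8, Alb, Ccna1 and Ccno were named after their values were seen. The members, lists and tests were chosen with earlier results of these data known. Promoters came from RefSeq GRCm38.p6 by symbol or gene ID, and 71 of the 86 genes with a negative interaction had an entry. The fit was tested on simulated data. Alternatives were the normalization, probe set rule, dim filter, array weights, poly-A covariate, replicate block, arrays fitted and each animal left out.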

Additional observations from a re-analysis of the deposited data

Results flagged for a closer look

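In 96 checks of groups of 5 animals, 4 single animals lay far from the others, where chance gives about 1 in 20. Aox3 was 9.07 in animal 3 at 40 ppm and 1 week, with the others at 9.41 to 9.46. Pbk was 5.74 in animal 1 at 40 ppm and 4 weeks, with the others at 5.16 to 5.22. Scgb1a1 was 13.57 in animal 3 at 40 ppm and 4 weeks, with the others at 13.75 to 13.79. Mki67 was 7.28 in animal 5 at 40 ppm and 1 week, with the others at 5.82 to 6.20.

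The 40 ppm change at 4 weeks minus that at 1 week passed limma's test in 24 named genes. It was positive in Pon1 (1.41), Serpind1 (1.21), Azgp1 (1.14), Aox3 (0.74) and Hilpda (0.61). It was negative in Cd177 (-2.97), Ghrl (-2.54), Cep55 (-2.40), Cdc20 (-2.40), Pbk (-2.34), Cdk1 (-2.30), Birc5 (-2.17), Ckap2 (-2.12), Top2a (-2.11), Ccna2 (-2.05), Tk1 (-2.00), E2f7 (-1.98), Deup1 (-1.98), Aurka (-1.94), Wfdc3 (-1.93), Dtl (-1.92), Uhrf1 (-1.53), Rrm2 (-1.37) and Mt1 (-0.78).

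The difference of that interaction between strains passed for WT minus KO in E2f7 (-2.10), Deup1 (-1.85) and Wfdc3 (-2.23). For WT minus TG it passed in Pbk (-2.36), Ckap2 (-2.24), Tk1 (-2.29), E2f7 (-1.89), Deup1 (-1.92), Wfdc3 (-2.03), Dtl (-1.84) and Mt1 (-1.12).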

How the results depend on the processing

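With dim genes left out, 28 genes passed the WT interaction, 12 the 4-week change, 3 the WT minus KO and 5 the WT minus TG difference, with fewer genes tested. With probe sets summarised by their median, 248 passed between the air groups and 9 for WT minus TG, and Nr4a3 turned to 0.10 at 4 weeks and 0.20 at 1 week. With only the arrays compared, 169 passed the interaction, 1395 the 1-week change, 256 between air groups, 2227 between 40 ppm groups, 24 for WT minus KO and 87 for WT minus TG. With array weights the counts were 306 for the interaction, 87 at 4 weeks, 2446 at 1 week, 606 in air, 4502 at 40 ppm, 23 for WT minus KO and 91 for WT minus TG. With the poly-A covariate 56 passed at 4 weeks, 397 in air and 37 for WT minus TG. Without the 4 arrays of low weight 169 passed the interaction, 41 the 4-week and 1385 the 1-week change, 295 in air, 2219 at 40 ppm, 9 for WT minus KO and 50 for WT minus TG. The cause of these moves was not tested. Leaving out 1 animal at a time gave 74 to 116 for the interaction, 12 to 26 at 4 weeks, 472 to 895 at 1 week, 76 to 113 in air, 607 to 1038 at 40 ppm, 4 to 7 for WT minus KO, 6 to 27 for WT minus TG and 0 in KO and in TG. Of 24 named genes that passed the interaction, 18 passed in every alternative that tested them. The dim filter removed some of the 18, Cd177, Ghrl and Cep55 among them, so they were not tested in that run. Replicate numbers did not pair the animals (correlations of deviations -0.31 to 0.26 over 30 pairs, 6 of 20 animals closest to their own number). With the replicate block 97 genes passed the interaction, 89 of them shared, with 33 at 4 weeks, 841 at 1 week, 115 in air, 1113 at 40 ppm, 6 for WT minus KO and 15 for WT minus TG. Dim levels limit the size of many mitosis changes, as 27 of the 38 genes were dim.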

Other observations

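Genes that act while cells become multiciliated were looked up after the values of Deup1 and Ccno were seen, and are given as values only. Myb, an early regulator, changed by 0.26 at 4 weeks against 0.66 at 1 week (adjusted p at 1 week = 0.034). Plk4, the kinase that starts centriole assembly, changed by -0.17 against 0.97 (interaction -1.14, limma adjusted p = 0.082). Foxj1, the master factor of motile cilia, changed by 0.13 against 0.51, and Foxn4, a factor of the same path in frog, by -0.09 against 0.51. Stil, a centriole assembly protein, had an interaction of -1.13 and passed. Enkd1 and Lrrc23 also passed, with interactions of -0.99 and -0.94, and Rfx2 and Rfx3, with -0.27 and -0.05, did not. Of the others looked up, E2f8 passed with -1.11, as did E2f7 and Ccna1, named above. Trp73, E2f4, E2f5, Cep152 and Sass6, with -0.22, 0.07, -0.12, -0.42 and -0.30, did not pass, and neither did Myb, Foxj1 and Foxn4.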
